A study of Mus musculus with 3 samples.

Results

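The genes of oxidative phosphorylation were followed across the mouse uterus at day 7.5 of pregnancy, with the subunits encoded in the mitochondrial genome set beside those encoded in the nucleus. Members were chosen by symbol alone: every gene named mt-, Nduf, Uqcr or Atp5, the genes Sdha to Sdhd, and Cox4 to Cox8, where at least 50 transcript molecules (unique molecular identifiers, UMIs) were counted over all sections. The rule found 102 members of 32285 listed genes, of which 12 are mitochondrially encoded and 90 are nuclear. Complex I took 6 mitochondrial and 37 nuclear members, with 8 Ndufaf assembly factors beside them. Complex II took 4 nuclear members, complex III took 1 mitochondrial and 8 nuclear, complex IV took 3 and 16, and complex V took 2 and 17. No member carries a symbol for cytochrome c itself or for most assembly factors of complexes II to V, which were read from a separate list.

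Oxidative phosphorylation is the last stage of respiration: complexes I to IV pass electrons to oxygen and pump protons across the inner mitochondrial membrane, and complex V, the ATP synthase, uses the proton gradient to make ATP. Complexes I, III, IV and V are built from products of both genomes, whereas every subunit of complex II is nuclear. Mitochondrial genes are transcribed as long precursors inside the organelle and cut into single messages, while each nuclear subunit has a promoter of its own. At this stage of pregnancy the mouse uterus holds a muscle wall, stroma turned into decidua, uterine natural killer cells, glands, trophoblast and the embryo with its yolk sac.

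The data are 3 Visium libraries of frozen uterine sections from female mice mated and dissected at pregnancy day 7.5, a single group with no treatment or genotype contrast. The first library mixes biological replicates 1 and 2, which the matrix does not separate, and it is counted as 1 library beside replicate 3 and replicate 4. Visium reads polyadenylated RNA on barcoded spots, each of which can cover several cells of different types. Of 3978 spots, 3939 had at least 1000 UMIs and were kept. Over all deposited spots the median was 8038 UMIs per spot in the library of replicates 1 and 2, 26543 in replicate 3 and 28286 in replicate 4. Because barcodes come from a fixed array, the libraries share 676 to 825 of them pairwise.

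Spots were grouped into 13 regions from 1500 variable genes that included no member, marker or pathway gene. The UMIs of each region were then summed per library, giving 37 sums of at least 20 spots. For each gene, edgeR's quasi-likelihood test with library as a block compared a region with the mean of all others. A gene is called higher or lower where its adjusted p was under 0.05 and its change at least 1.5 times. All 102 members passed the filter on low counts and stood among 6584 genes tested. Marker lists anchored 5 regions: region 11 (led by Csrp1, Flna and Mylk) had the highest smooth muscle list, region 12 (Fabp4, Psap and Dbi) decidua, region 4 (Gzmd, Gzmf and Gzme) natural killer cells, region 5 (S100a8, Mrgprg and Cstb) trophoblast, and region 13 (Apoc2, Nap1l1 and Snrpd1) yolk sac. Regions 12 and 13 have sums in the library of replicates 1 and 2 and in replicate 4 alone, with 3 and 0 spots in replicate 3. Neighbouring spots come from the same sections, so spots are not counted as replicates. The library block removes differences in level between libraries. The p-values rest on how unevenly regions differ from library to library, with the spread of a gene pooled over all 37 sums. Beyond the block, sums of the same library are treated as independent.

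Over all deposited spots the mitochondrial members gave 0.967% of all UMIs and the nuclear members 3.91%, so that nuclear members yielded 4.04 times as many UMIs as mitochondrial ones. Over the kept spots the mitochondrial share was 1.18% in the library of replicates 1 and 2, 0.951% in replicate 3 and 0.860% in replicate 4. The nuclear share of UMIs outside the mitochondrial genome ran the other way, at 3.77%, 3.99% and 4.01%. The shallowest library thus had the largest mitochondrial share, and its 38 spots under 1000 UMIs, left out here, had a share of 2.99%.

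The mitochondrial members were higher in region 11 than elsewhere, all 12 of them, whereas the nuclear members there shifted less and in both directions. Among all genes tested, 20.5% were called higher in region 11 and 16.2% lower. The median log2 fold change of the mitochondrial members was 1.35, with a range from 0.78 to 1.72, against -0.02 for all genes. The median of the 90 nuclear members was 0.17, with 60 above 0 and 30 below. Of them 7 were called higher and 2 lower, and 45 passed the p threshold without reaching 1.5 times. With relative log expression scaling, which shifted the median of all genes in region 11 to 0.11, the nuclear split was 21 higher and 2 lower, and all 12 mitochondrial members kept their call.

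The mitochondrial share of all UMIs in region 11 was 2.56% in the library of replicates 1 and 2, 1.94% in replicate 3 and 1.35% in replicate 4, or 1.95% ± 0.60 (SD, n = 3). It was the highest of the regions within each library. The lowest share was in region 12, at 0.483% in the library of replicates 1 and 2 and 0.379% in replicate 4. Between these extremes lay region 7 (1.27% ± 0.29), region 10 (1.25% ± 0.13) and region 2 (0.999% to 1.36% over its libraries), whose spreads overlap, and at the low end region 13 (0.678% ± 0.120, n = 2) and region 5 (0.663% ± 0.013, n = 3).

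The nuclear members followed another order. Their mean share of UMIs outside the mitochondrial genome was highest in region 4 (5.01% ± 0.33, n = 3) and region 3 (4.88% ± 0.33), and lowest in region 12 (2.24% ± 0.05, n = 2). Region 4 was slightly above region 3 in each library, at 5.14% against 5.06%, 4.64% against 4.50% and 5.26% against 5.08%. These gaps were smaller than the SD over libraries. Region 8 (4.77% ± 0.24) and region 10 (4.70% ± 0.33) were also within that spread, and in replicate 3 region 8 was the highest, at 4.71%. Region 11, at 4.15% ± 0.32, ranked sixth. Mitochondrial UMIs per nuclear member UMI were therefore highest in region 11, at 0.691, 0.449 and 0.322 in the 3 libraries, and were 0.220 and 0.167 in region 12. The ratio was also low in region 9, at 0.264, 0.207 and 0.142, where the nuclear share was 4.17% ± 0.28.

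**Figure D1:**
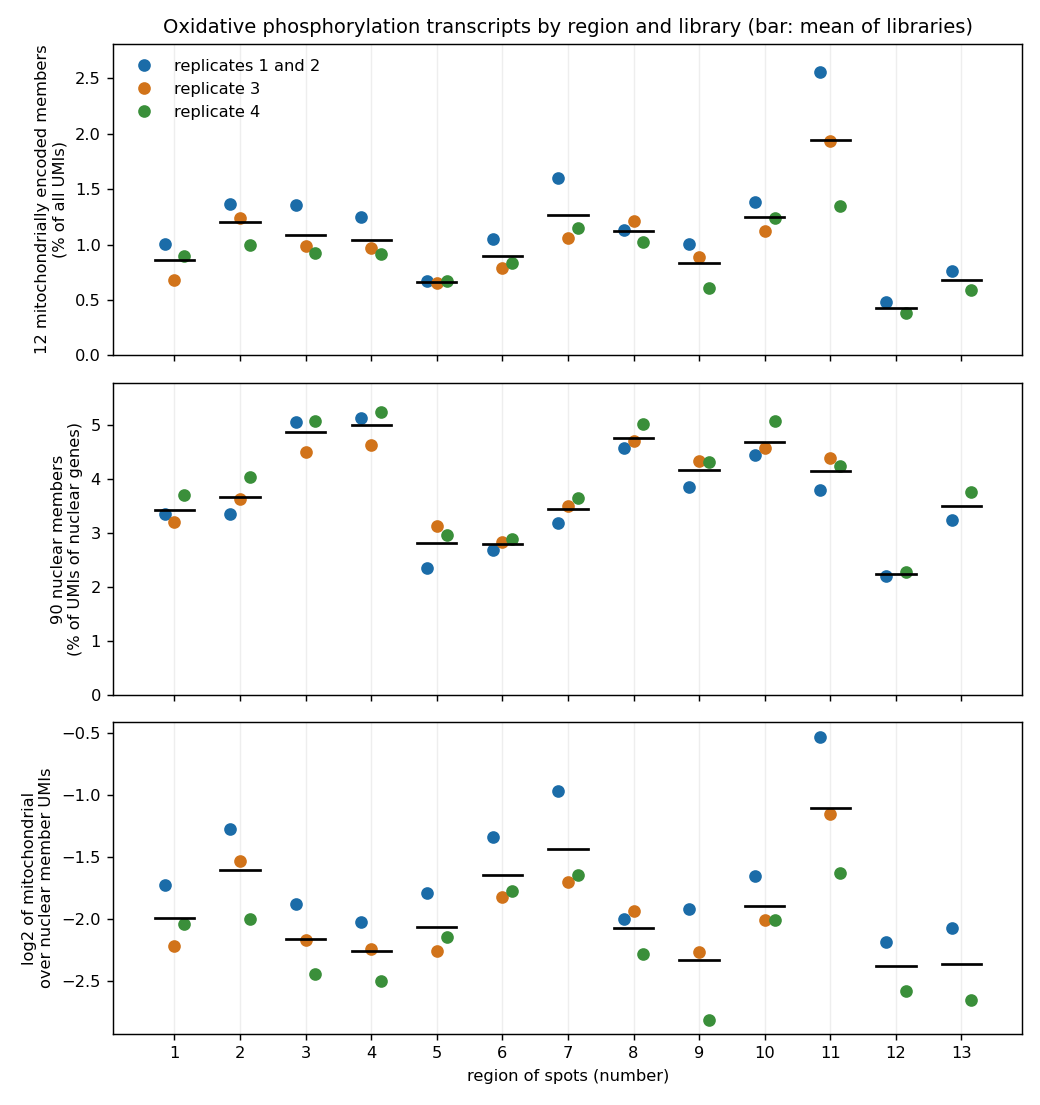
Share of UMIs from the 12 mitochondrially encoded members (top, percent of all UMIs), share from the 90 nuclear members (middle, percent of UMIs of nuclear genes) and the log2 ratio of their UMIs (bottom), for each of 13 regions; each point is a library and each bar the mean of the libraries. Region 11 stands highest in the top and bottom panels, and region 12 lowest in the top and middle panels.

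Spots of region 11 were shallow, with medians of 3928, 12639 and 8808 UMIs in the 3 libraries, and carried other signals beside the smooth muscle list. The 10 smooth muscle genes summed to 34300 to 43000 CPM there, where CPM scales the UMIs of a gene to all UMIs of its sum, against 16900 to 19100 in region 7 and at most 14900 in any other region, with none of the 10 at 0. The 5 adult blood genes summed to 43700 CPM in the library of replicates 1 and 2, 367 in replicate 3 and 9140 in replicate 4, and 9 uterine gland genes to 381 to 3220. The part of blood and gland RNA in the mitochondrial share was not tested. Within a single range of UMIs per spot (3000 to 10000 in the library of replicates 1 and 2, 10000 to 20000 in the other libraries), the share in region 11 was 2.36%, 1.96% and 1.44%, against 1.05%, 1.04% and 0.719% over all other regions. These comparisons hold 86, 15 and 15 spots of region 11. In summed spots, fewer cells of a type and less RNA per cell cannot be told apart, nor can more mitochondria and more transcripts per mitochondrion.

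Among the mitochondrial members of complex I in region 11, the increase was largest for mt-Nd3 (log2 fold change 1.72, SE 0.13, adjusted p = 1.062e-13). Its level, in CPM after scaling by the trimmed mean of M-values, was 394, 265 and 180 in the 3 libraries, and the 34 sums elsewhere ran from 31.2 through a median of 76.2 to 291. Of those sums, 2 reached the lowest value of region 11. For mt-Nd4 the values were 1335, 1046 and 694 against 178 to 729 elsewhere, and 1 sum elsewhere reached the lowest. The other complex I messages rose by 1.15 (mt-Nd1), 1.36 (mt-Nd2), 1.37 (mt-Nd5) and 1.70 (mt-Nd4l) on the log2 scale.

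The messages for the catalytic core of complex IV moved unequally in region 11. mt-Co1, which encodes the subunit that reduces oxygen, had the smallest increase of the 12 (0.78, SE 0.10), at 4876, 4560 and 3050 CPM against 1337 to 3707 elsewhere. mt-Co3, the third core subunit, rose by 1.33 (SE 0.10), at 8205, 5029 and 3354 CPM against 1019 to 5584 elsewhere. The ranges of both genes overlap with other regions, with 7 sums elsewhere at or above the lowest mt-Co1 value and 4 for mt-Co3. mt-Co2 rose by 0.89, mt-Cytb of complex III by 0.88, and mt-Atp6, the proton channel subunit of complex V, by 1.30. mt-Atp8 rose by 1.49 but rests on few counts (14.3, 2.73 and 6.27 CPM). It lost its call without the library of replicates 1 and 2 (1.89, adjusted p = 0.135) and without replicate 4 (1.25, adjusted p = 0.0791), as mt-Nd4l did without replicate 3 (1.00, adjusted p = 0.212). On the mitochondrial chromosome (mm10, annotated by GENCODE M21), mt-Atp8 at 7766 to 7969 overlaps mt-Atp6 at 7927 to 8607, and mt-Nd4l at 9877 to 10173 overlaps mt-Nd4 at 10167 to 11544, so reads of these pairs are not cleanly separable.

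Region 7, led by Csrp1, Col6a2 and Flna and second in the smooth muscle list, had 9 of 12 mitochondrial members higher (20.9% of all genes were called higher and 9.51% lower). That count was 3 when regions were drawn from the other gene set and 6 without the library of replicates 1 and 2. Among them were mt-Nd3 (1.44, SE 0.12), mt-Nd5 (0.92, SE 0.16) and mt-Co3 (0.85, SE 0.11). mt-Co1 did not move with them: its log2 fold change was -0.03 (SE 0.10, adjusted p = 0.862), and that of mt-Cytb was 0.14 (adjusted p = 0.274). mt-Co2 passed the p threshold but not the fold (0.52). Of the nuclear members in region 7, 1 was called higher, Atp5e (0.65), and 9 lower, among them Uqcrb of complex III (-0.99) and Cox5a (-0.92), and 19 were lower with regions from the other gene set. The make-up of the mitochondrial RNA differed accordingly. mt-Co1 gave 18.8% ± 2.6 (n = 3) of mitochondrial member UMIs in region 7, the lowest of the 13 regions, and 31.4% ± 3.3 in region 3, the highest.

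The log2 ratio of mt-Co3 to mt-Co1 UMIs was 1.12, 0.47 and 0.37 in the 3 libraries of region 7. Region 11 had ratios of 0.75, 0.14 and 0.14, and those of region 2 were 0.55, 0.14 and 0.19. These 3 regions, the top 3 of the smooth muscle list, were the ones where the ratio was above 0 in each library. In region 3 it was -0.25, -0.68 and -0.75. mt-Nd3 gave 1.72% ± 0.10 of mitochondrial member UMIs in region 7 and 1.41% ± 0.08 in region 11, against 0.645% ± 0.045 in region 9. Regions 2, 7 and 11 also had high stroma matrix lists (12700 to 16800, 15500 to 17100 and 8380 to 11600 CPM), as did region 6 (8760 to 10500 CPM), and the part of these in the ratio was not tested.

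**Figure D2:**
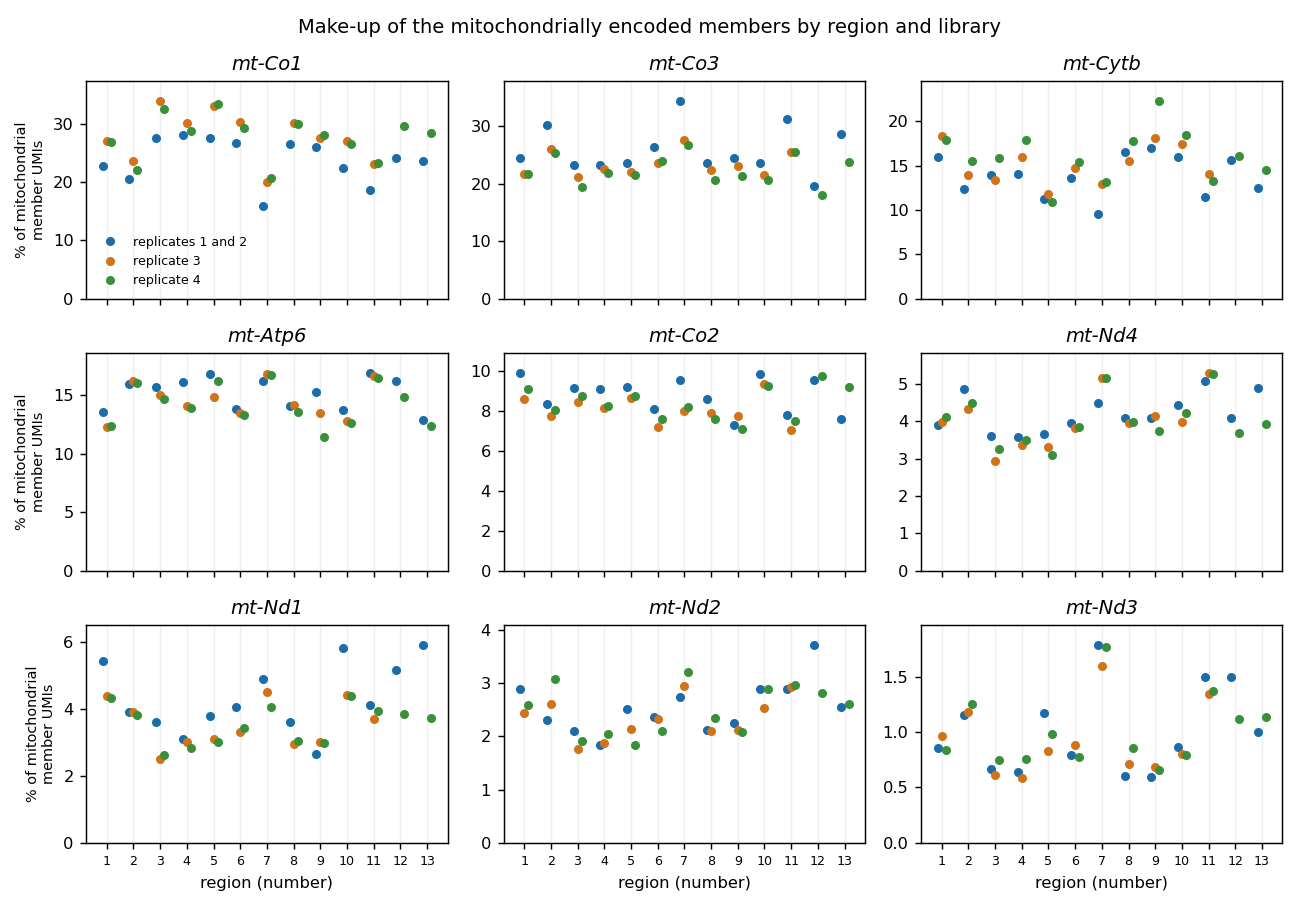
Percent of mitochondrial member UMIs from each of 9 mitochondrially encoded genes, by region (x axis), with each point a library. mt-Co1 is lowest and mt-Nd3 highest in region 7, and the library of replicates 1 and 2 has the smallest mt-Co1 share in every region where all 3 libraries have a sum.

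Mitochondrial members were lower in several other regions. In region 9, led by the granzyme genes Gzmd, Gzmf and Gzme with Fn1, 9 of 12 were called lower and 0 higher, where 14.4% of all genes were lower and 16.3% higher. Without replicate 4 the count was 3. The largest decreases were those of mt-Atp8 (-1.40), mt-Nd3 (-1.16, SE 0.15) and mt-Nd1 (-0.98, SE 0.12), while mt-Co1 (-0.53) did not reach the fold and mt-Cytb (-0.21, adjusted p = 0.0799) did not pass the test. The mt-Atp8 value rests on only 4, 3 and 1 UMIs in the 3 libraries of region 9. Of the nuclear members there, 0 were called higher and 4 lower. Another scaling used only the UMIs outside the mitochondrial genome and left out the trimmed mean of M-values. Under it the median of all genes moved to 0.38 in region 9. The calls were then 2 lower of the mitochondrial members and 6 higher and 0 lower of the nuclear ones. The median of the mitochondrial members lay 0.71 below that of all genes under each of these scalings, a distance that is nearly fixed because a scaling moves all genes of a sum together.

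Region 10, led by Psca, Sfrp5 and Mt1, had calls of both classes on the higher side: 5 of 12 mitochondrial members and 14 of 90 nuclear ones were called higher and none lower, against 11.8% and 9.98% of all genes. Without replicate 4 the mitochondrial count was 3. The nuclear count was 9 when scaled by UMIs outside the mitochondrial genome. Named by value, mt-Nd1 rose by 0.91 (SE 0.10) and mt-Cytb by 0.75 (SE 0.09), and Ndufs4 and Sdhb by 0.95 and 0.94. Region 10 held the highest fitted level of 26 of the 90 nuclear members and region 11 of 23, whereas all 12 mitochondrial members peaked in region 11. The lowest level fell in region 12 for 22 nuclear members, in regions 6 and 13 for 20 each, and in region 9 or 13 for 10 of the 12 mitochondrial members, counting 5 in each. Between its highest and lowest region a mitochondrial member spanned a median of 2.21 on the log2 scale, and a nuclear member 1.18.

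**Figure D3:**
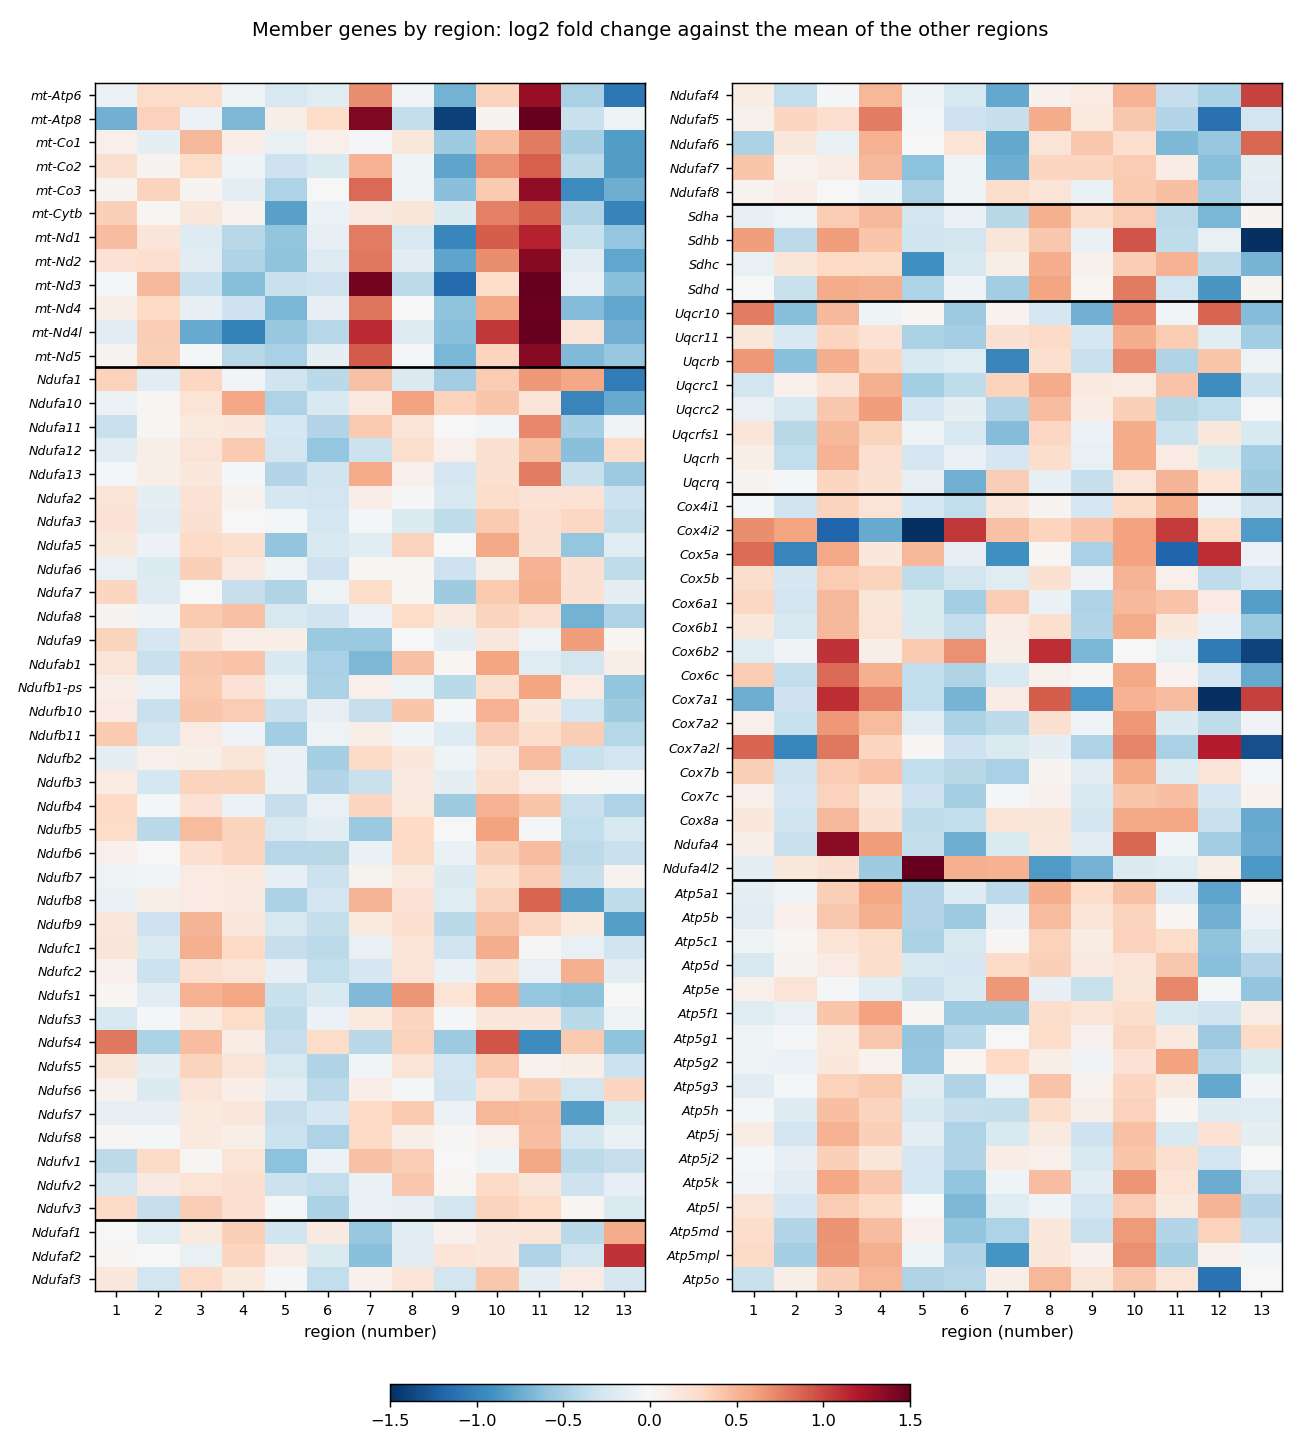
Log2 fold change of members (rows, with black lines between the mitochondrial members, complex I, its assembly factors and complexes II to V) in each of 13 regions (columns) against the mean of the other regions; colours end at -1.5 and 1.5. The mitochondrial rows are red in region 11, and in region 7 all but mt-Co1 (-0.03) lie above 0, and the rows of Cox7a2l and Cox5a differ in region 12 from most rows of complex IV.

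The nuclear members of region 11 are best read by complex. Complex I had 5 of 37 members higher, a smaller share than the 20.5% of all genes, as did complex V with 2 of 17. Those of complex I were accessory subunits: Ndufb8 (0.87, SE 0.07), Ndufa13 (0.77), Ndufa11 (0.72), Ndufa1 (0.65) and Ndufb1-ps (0.59), the last annotated as a non-coding transcript at a bidirectional promoter. Ndufb8 stood at 567, 527 and 536 CPM in region 11, above all 34 sums elsewhere, which ran from 179 to 475. Those of complex V were Atp5e (0.73, SE 0.08) and Atp5g2 (0.60). Atp5g2 encodes the c-ring protein, whose mature form it shares with Atp5g1 and Atp5g3, so reads of these paralogs may be split between them. Without the library of replicates 1 and 2, Ndufa1 and Atp5g2 were under the fold (0.51 and 0.58). The nuclear members called higher numbered 4 without that library and 12 without replicate 4. The decreases were in Cox5a of complex IV (-1.18, SE 0.10), at 499, 401 and 346 CPM, and Ndufs4 of complex I (-0.94, SE 0.15). None of the 8 assembly factors of complex I, the 4 members of complex II or the 8 nuclear members of complex III was called there.

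In region 12, where the 12 decidua genes summed to 130000 to 195000 CPM, more members of both genomes were called lower than higher. Of the 90 nuclear members 4 were called higher and 19 lower, and of the 12 mitochondrial ones 0 and 3, where 21.2% of all genes were higher and 18.3% lower. The nuclear share called lower was thus near that of all genes. The nuclear median was -0.29 and the mitochondrial one -0.42, against -0.11 for all genes. Although region 12 had the lowest shares of UMIs, neither median was the lowest of the regions in this fit. The nuclear median was -0.32 in region 6, and the mitochondrial median was -0.76 in region 13, -0.70 in region 9 and -0.47 in region 5. Without replicate 4, 10 nuclear members were lower. Complex V contributed most, with 7 of 17 members lower and none higher, among them Atp5a1 and Atp5b of the catalytic head (-0.79 and -0.72) and Atp5o, which links the head to the stalk (-1.11, SE 0.14). Complex II had 2 of 4 lower, Sdha and Sdhd, and complex I had 6 of 37 lower with Ndufa10 the furthest (-0.996, SE 0.14). The mitochondrial decreases were those of mt-Co3 (-0.95, SE 0.15), mt-Nd4 (-0.65) and mt-Nd5 (-0.66), of which mt-Nd4 and mt-Nd5 each lost the call without replicate 4 (-0.55 and -0.81), and mt-Nd5 also without the library of replicates 1 and 2 (-0.42).

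How far down region 12 stood depended on the scaling. Scaled by UMIs outside the mitochondrial genome, all genes moved to a median of -0.82 there, and the nuclear split became 0 higher and 67 lower, with 10 of 12 mitochondrial members lower. That scaling also drops the trimmed mean of M-values factors. In region 12 these were 0.619 in the library of replicates 1 and 2 and 0.648 in replicate 4. Mitochondrial members were 0.483% and 0.379% of UMIs in these sums. Both changes were made at once and not separately. Relative to the median of all genes the members were nearly where they had been: the nuclear median lay 0.18 below all genes in the first scaling and 0.20 below in the second, and the mitochondrial median 0.31 and 0.32 below. A change of scaling moves all genes of a sum together, so these distances are nearly fixed by construction and are no check on the result.

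Cox7a2l and Cox5a were the members with the largest increases in region 12. Cox7a2l encodes a relative of Cox7a2 that joins complexes III and IV into supercomplexes, and Cox5a encodes a nuclear subunit of complex IV. Cox7a2l was at 1671 CPM in the library of replicates 1 and 2 and 1262 in replicate 4, against 272 to 1484 in the 35 sums elsewhere (log2 fold change 1.18, SE 0.09, adjusted p = 3.186e-14 by edgeR's quasi-likelihood test). Cox5a was at 2022 and 1696 CPM against 346 to 1792 elsewhere (1.10, SE 0.09). The overlap came from 2 sums for Cox7a2l and 1 for Cox5a, and region 1, which had the second highest decidua list, also had both genes higher (0.88 and 0.84). Uqcr10 of complex III rose by 0.88 and Ndufa9 of complex I by 0.63, the last turning to -0.09 under the scaling by UMIs outside the mitochondrial genome. Atp5o moved the other way, at 177 and 167 CPM, below every one of the 35 sums elsewhere (191 to 529).

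The promoters of these 3 genes are printed to set a pair that was high in region 12 beside one that was low there. Each runs from 250 bases before to 50 after the RefSeq transcription start (GRCm38.p6), 5′ to 3′ on the strand of the gene, with capitals marking a match to a searched motif on either strand. Cox7a2l lies at chr17:83514284-83514583 on the minus strand and holds none of the motifs searched. Cox5a lies at chr9:57520982-57521281 on the plus strand, and its capitals mark ACGTG, the core of the hypoxia response element. Atp5o lies at chr16:91931581-91931880 on the minus strand, and its capitals mark the site of nuclear respiratory factor NRF1, searched as GCGC and TGCGC with any single base between them.
Cox7a2l: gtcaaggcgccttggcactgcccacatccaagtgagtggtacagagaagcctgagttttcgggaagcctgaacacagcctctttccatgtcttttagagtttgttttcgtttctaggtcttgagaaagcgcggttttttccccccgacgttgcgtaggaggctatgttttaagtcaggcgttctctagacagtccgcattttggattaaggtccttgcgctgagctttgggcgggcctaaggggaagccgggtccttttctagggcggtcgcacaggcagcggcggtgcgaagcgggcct
Cox5a: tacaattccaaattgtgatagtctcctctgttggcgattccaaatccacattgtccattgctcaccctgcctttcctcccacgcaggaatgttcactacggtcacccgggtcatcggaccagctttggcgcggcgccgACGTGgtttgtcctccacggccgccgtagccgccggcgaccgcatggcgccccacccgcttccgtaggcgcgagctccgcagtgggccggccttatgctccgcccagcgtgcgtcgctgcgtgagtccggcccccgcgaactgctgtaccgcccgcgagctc
Atp5o: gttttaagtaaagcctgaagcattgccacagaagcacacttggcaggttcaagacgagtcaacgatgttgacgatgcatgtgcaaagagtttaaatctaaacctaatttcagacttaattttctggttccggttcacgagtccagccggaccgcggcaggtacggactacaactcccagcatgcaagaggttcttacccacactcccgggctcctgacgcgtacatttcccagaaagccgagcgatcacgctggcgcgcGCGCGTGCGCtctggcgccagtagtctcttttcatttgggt

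Of the 90 nuclear members, 75 had a promoter in the RefSeq table. The NRF1 letters stood in 25.3% of them and in 5.19% of all 27025 genes with a promoter of the same length. The site of the ETS factor GABPA, CCGGAAG, stood in 25.3% against 9.93%, and that of YY1, AAGATGGCG, in 10.7% against 1.64%. The CCAAT box (44% against 41.1%) and ACGTG (24% against 21.8%) were about as frequent as in all genes. Among members with a promoter, NRF1 letters stood in 8 of the 17 called lower in region 12, in 0 of the 4 called higher and in 11 of the 54 not called. A match is a description of these letters and not of binding.

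Region 4, where 10 natural killer cell genes summed to 2670 to 7650 CPM, had the classes moving apart. Of the nuclear members 5 were called higher and 1 lower, and of the mitochondrial ones 0 and 2, against 13.2% of all genes higher and 8.54% lower. The nuclear members higher numbered 9 without replicate 3 and 8 without replicate 4. When regions were drawn otherwise, the count was 0 at clustering resolution 0.3 and 2 with no minimum of UMIs per spot. It was 10 with the other gene set and 13 at a minimum of 5000 UMIs. The nuclear median was 0.27, with 80 of 90 members above 0, and the mitochondrial median was -0.36, with 10 of 12 below 0. Most nuclear changes were thus small, and 54 passed the p threshold without reaching 1.5 times. Under the scaling by UMIs outside the mitochondrial genome the nuclear split was 29 higher and 0 lower and no mitochondrial member was called. The 5 higher were Ndufaf5, an assembly factor of complex I (0.77), Cox7a1 (0.73), Ndufa4 (0.63, SE 0.07), the complex III core protein Uqcrc2 (0.63, SE 0.08) and the stalk subunit Atp5f1 (0.61, SE 0.08). Cox7a1 kept its p in region 4 but not the fold without the library of replicates 1 and 2 (0.57), and lost the p without replicate 3 (adjusted p = 0.0885). The members called lower were mt-Nd3 (-0.64), mt-Nd4l and Cox4i2 (-0.75). Cox4i2 lost its call in region 4 without any one of the 3 libraries, at -0.70, -1.28 and -0.29 without replicates 1 and 2, replicate 3 and replicate 4. mt-Nd4l lost its call without the library of replicates 1 and 2 (-0.75) and without replicate 4 (-0.65), and mt-Nd3 was under the fold without replicate 3 (-0.57). Region 9 had a natural killer list nearly as high, at 2750 to 5640 CPM. Its mitochondrial median was also below 0 (-0.70). Its nuclear median was -0.10, with 58 of 90 members below 0, so the nuclear increase of region 4 was not shared there.

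Region 5, where 10 trophoblast genes summed to 1140 to 1570 CPM beside a decidua list of 23000 to 69700, had 1 nuclear member higher and 6 lower, and 4 of 12 mitochondrial members lower (22.9% of all genes were higher and 13.6% lower). Scaled by UMIs outside the mitochondrial genome, the nuclear split was 1 higher and 21 lower, with 6 mitochondrial members lower. The nuclear members lower numbered 2 without the library of replicates 1 and 2 and 2 without replicate 4. The mitochondrial decreases were mt-Cytb (-0.81, SE 0.10), mt-Nd4 (-0.68, SE 0.12), mt-Nd2 (-0.61) and mt-Nd1 (-0.59), the last 2 so close to the fold that leaving out a library took mt-Nd1 (-0.55 without the library of replicates 1 and 2, -0.53 without replicate 3) or mt-Nd2 (-0.56 without replicate 4) under it. Sdhc, a membrane anchor of complex II, fell by 0.92 (SE 0.10) and stood at 49.3, 46.4 and 50.8 CPM, with 1 sum elsewhere at or below the highest of these. The member that rose was Ndufa4l2, a paralog of the complex IV subunit Ndufa4 known as a target of hypoxia-inducible factor, by 1.95 (SE 0.19). Its levels were 111 and 127 CPM in replicates 3 and 4, above all 34 sums elsewhere (6.61 to 46.2), but 16.1 in the library of replicates 1 and 2, within their range. Ndufa4l2 was thus 1.30% of the Ndufa4 and Ndufa4l2 UMIs in that library and up to 8.74% in the other libraries of region 5.

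Region 13 held 25 spots in each of 2 libraries, where the 10 yolk sac genes summed to 3060 to 3640 CPM and the 9 embryo genes to 654 to 705, the highest of the regions for both lists. Its trophoblast genes summed to 1150 to 1420 CPM, within the range of region 5, its uterine gland genes to 2510 to 2520 and its adult blood genes to 2720 to 5640, and their part in the changes was not tested. Of the mitochondrial members 0 were called higher and 7 lower, and of the nuclear ones 2 and 15, against 19% of all genes higher and 17.7% lower. Under the scaling by UMIs outside the mitochondrial genome these became 0 and 2, and 4 and 4. The largest mitochondrial decreases were mt-Atp6 (-1.09, SE 0.17) and mt-Cytb (-1.001, SE 0.14). Complex IV had 6 of 16 nuclear members lower, among them Cox7a2l (-1.32, SE 0.13), Cox6a1 (-0.83, SE 0.12) and Cox8a (-0.75, SE 0.10). Sdhb, the iron-sulfur subunit of complex II, fell by 1.64 (SE 0.17) to 79.4 CPM in both libraries, below all 35 sums elsewhere (123 to 476). The 2 members that rose were assembly factors of complex I, Ndufaf2 (1.08, SE 0.21) and Ndufaf4 (1.01, SE 0.28). Both calls rested on replicate 4, without which the values were 0.37 (adjusted p = 0.722) and 0.11 (adjusted p = 1).

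**Figure D4:**
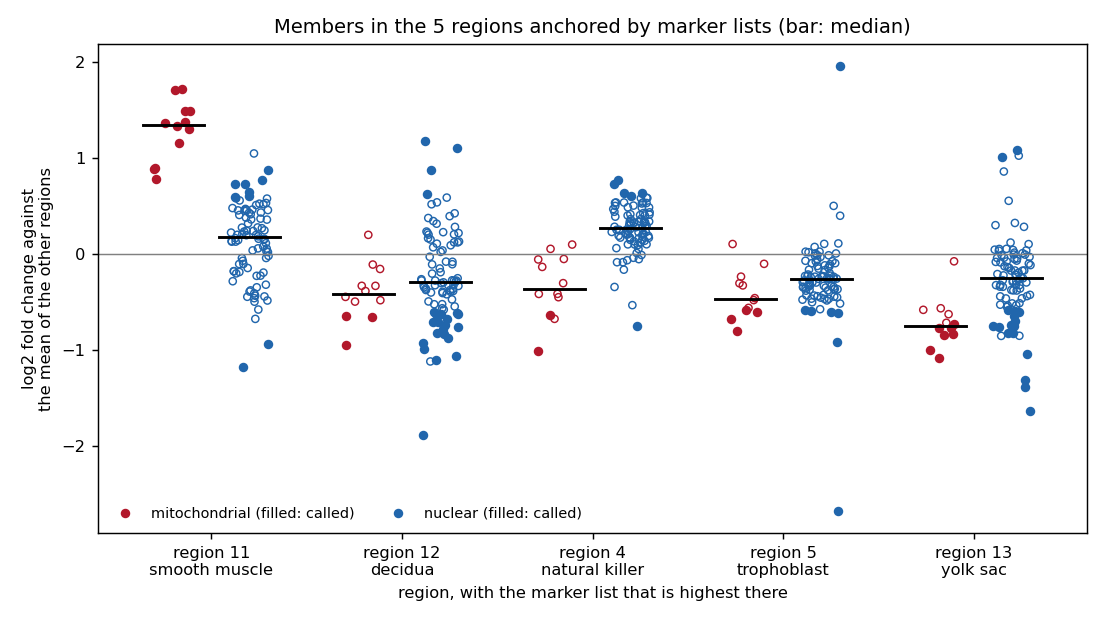
Log2 fold change of each mitochondrial (red) and nuclear (blue) member against the mean of the other regions (y axis) in the 5 regions anchored by marker lists (x axis), with called members filled and a bar at each median. In region 11 the red points run from 0.78 to 1.72 above a nuclear median of 0.17, and in region 4 the red median of -0.36 lies below the blue one of 0.27.

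In the other regions no mitochondrial member was called in either direction. Nuclear members were called 9 higher and 1 lower in region 3 (15.7% and 9.36% of all genes), 5 and 1 in region 8 (11% and 8.51%), 7 and 1 in region 1 (15.8% and 13.6%), 0 and 4 in region 2 (20.1% and 10.3%) and 2 and 5 in region 6 (15.9% and 3.69%). Under the scaling by UMIs outside the mitochondrial genome these splits were 9 and 1, 25 and 0, 1 and 5, 1 and 2, and 2 and 10. The nuclear members lower in region 6 numbered 34 to 45 at either other resolution or other minimum of UMIs, 12 without the library of replicates 1 and 2, and 3 without replicate 3. Those higher in region 3 numbered from 4 at resolution 0.3 to 32 at resolution 1.0, and 14 without replicate 3, and those higher in region 8 numbered 8 without the library of replicates 1 and 2. In region 2 that scaling also called 2 mitochondrial members higher. Ndufa4 in region 3 was the furthest of them (1.36, SE 0.07), at 4007, 3317 and 3979 CPM, above all 34 sums elsewhere (847 to 2984). Cox7a2l, Cox5a, Uqcr10 and Uqcrb were each lower in region 2 (-0.98, -0.99, -0.64 and -0.63) and each higher in region 1 (0.88, 0.84, 0.77 and 0.66).

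Compared directly with region 12, the same fit gave contrasts that all share region 12, so their values are set side by side and not correlated. Region 11 had 10 of 12 mitochondrial members higher and 0 lower, and 32 nuclear members higher and 8 lower, against 26.1% and 24.6% of all genes. mt-Co3 rose by 2.11 (SE 0.19) and mt-Nd4 by 1.97 (SE 0.18), and Cox5a fell by 2.11 (SE 0.13) and Cox7a2l by 1.54 (SE 0.13). Region 4 had 37 nuclear members higher and 3 lower but 1 mitochondrial member higher and 0 lower (23.7% and 22% of all genes), with Atp5o at 1.49 (SE 0.16), Ndufa10 at 1.45 (SE 0.15) and mt-Co3 at 0.75 (SE 0.18). Region 5 had 3 nuclear members higher and 9 lower (15.9% and 13.4% of all genes) and region 13 had 10 and 15 (20.3% and 23.2%), with no mitochondrial member called in either. In region 5 Cox6b2 was at 1.35 (SE 0.28) and Cox7a2l at -1.07 (SE 0.12), and in region 13 Cox7a2l was at -2.31 (SE 0.15). Under the scaling by UMIs outside the mitochondrial genome the nuclear splits were 68 and 2 for region 11, 79 and 0 for region 4, 31 and 1 for region 5, and 58 and 2 for region 13, while 12, 8, 4 and 4 mitochondrial members were higher.

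Several subunits of complex IV exist as paralogs, which were 4 of the 5 nuclear members with the widest spans. The 5 widest were Cox4i2 (3.75 on the log2 scale), Cox7a1 (2.99), Ndufa4l2 (2.81), Sdhb (2.58) and Cox7a2l (2.50), and among the narrowest were the complex I subunits Ndufs6 (0.74), Ndufs3 (0.73), Ndufb7 (0.72) and Ndufa2 (0.60). Cox7a2l made up 72.2% ± 4.0 (n = 2) of Cox7a2l and Cox7a2 UMIs in region 12 and 62.5% ± 5.7 (n = 3) in region 1, but 40.0% ± 2.0 in region 2 and 31.7% ± 9.6 (n = 2) in region 13. In absolute level, Cox4i2, a paralog of the ubiquitous Cox4i1, was rare: 0, 1.43 and 0.50 CPM in region 5, where it was lowest (-2.68, SE 0.44), and 1.54, 11.4 and 9.35 in region 6, where it was highest (1.07, SE 0.30). It gave at most 0.992% of the UMIs of the pair in any sum, and its decrease in region 5 lost the call without replicate 4 (-2.01).

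Cox7a1, the form of heart and skeletal muscle, was likewise rare, at 1.11 and 2.65 CPM in region 12, where it fell by 1.89 (SE 0.58), a call lost without replicate 4 (-1.45, adjusted p = 1). It was 5.73, 5.46 and 14.1 CPM in region 11 and at most 2.43% of Cox7a1 and Cox7a2 UMIs in any sum. Cox6b2, known from testis, rose in region 8 (1.11, SE 0.13) and region 3 (1.09, SE 0.13) and reached 17.1% of Cox6b2 and Cox6b1 UMIs in a sum of region 6. Its level was lowest in replicate 3 in 11 of the 11 regions where all 3 libraries had a sum.

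**Figure D5:**
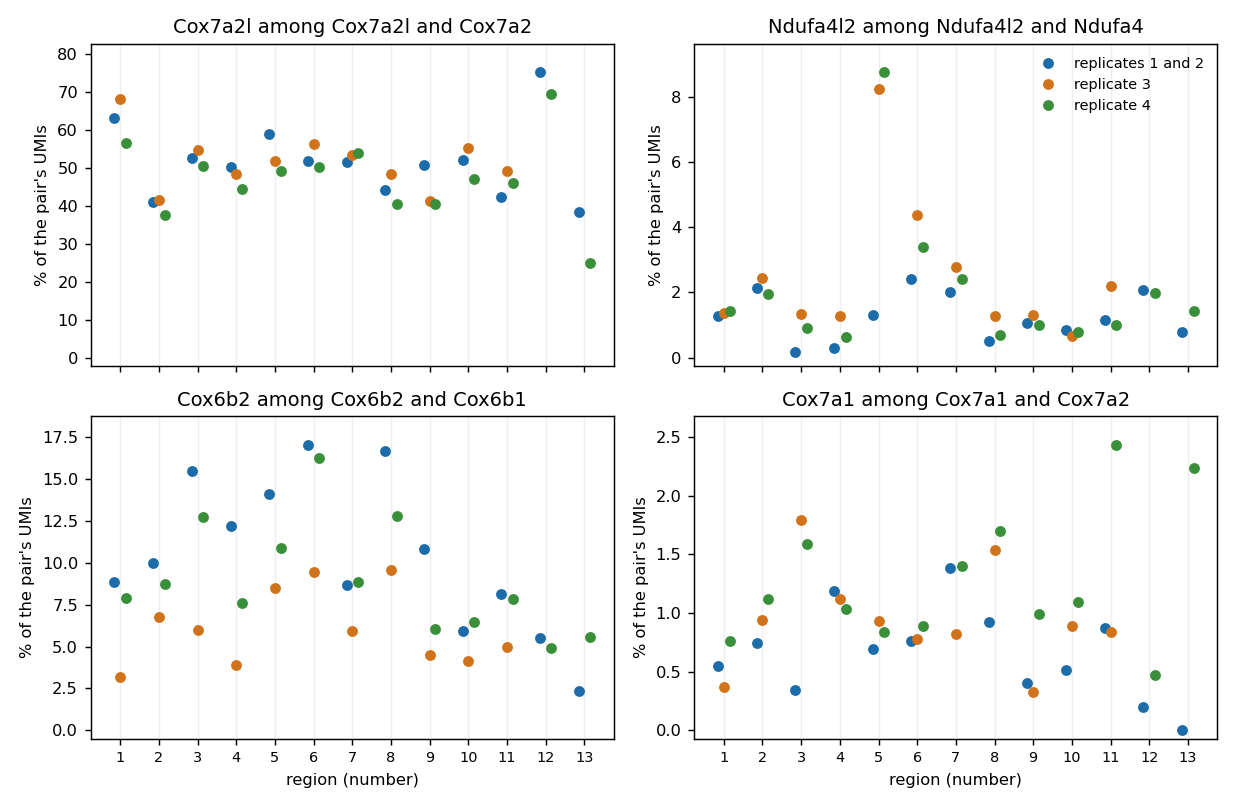
Share of the first named gene in the UMIs of a pair of complex IV paralogs (y axis, percent) by region (x axis), with each point a library. Cox7a2l is above 69% of its pair in both libraries of region 12, and Ndufa4l2 is above 8% of its pair in replicates 3 and 4 of region 5 but not in the library of replicates 1 and 2.

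The other genes of mitochondrial respiration, from lists that hold no member, were counted by the same calls. In region 11, 8 of 32 assembly factors of complexes II to V were lower and 0 higher (median -0.39), against 16.2% of all genes lower and 20.5% higher, with Cmc2 at -1.19 (SE 0.17) and Sdhaf2 at -1.07 (SE 0.18). The same list had 9 higher and 2 lower in region 12 (median 0.17), against 21.2% and 18.3% of all genes. It had 8 higher in region 10 and 7 in region 1, with 0 lower in each (11.8% and 15.8% of all genes were higher). Of 18 genes for upkeep, transcription and RNA of mitochondrial DNA, 0 were higher and 3 lower in region 11, near the 16.2% of all genes. They included Tfb1m, a methyltransferase of the mitochondrial ribosome (-1.99, SE 0.46), and Ssbp1, which binds single-stranded mitochondrial DNA (-0.77, SE 0.18). Among electron carriers and exchangers, Slc25a4, the muscle form of the ADP/ATP exchanger, rose there by 1.11 (SE 0.09), while Cycs, cytochrome c, fell by 0.98 (SE 0.12).

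In region 13, 7 of those 18 genes were higher and 0 lower (median 0.71), where 19% of all genes were higher and 17.7% lower. Ssbp1 rose by 1.40 (SE 0.17) and Polg, the mitochondrial DNA polymerase, by 1.19 (SE 0.18). Glycolysis had 10 of 16 genes higher and 1 lower in region 13, led by the glucose transporter Slc2a3 (3.65, SE 0.17) and Ldha, lactate dehydrogenase (2.22, SE 0.11). In region 5 it had 8 higher and 0 lower (22.9% and 13.6% of all genes), and in region 12, 0 higher and 8 lower (21.2% and 18.3%), with Eno1 at -1.81 (SE 0.19). The citric acid cycle had 1 of 16 genes higher and 9 lower in region 12 (median -0.61), including citrate synthase, Cs (-0.98, SE 0.16), and 4 higher and 0 lower in region 4 (13.2% and 8.54% of all genes). In region 4 Cycs rose by 0.94 (SE 0.09) and Slc25a5, the ubiquitous ADP/ATP exchanger, by 0.97 (SE 0.08). Of 8 tested regulators of mitochondrial genes, Ppard was called higher in region 12 (1.88, SE 0.14) and region 5 (1.83, SE 0.11) and lower in region 11 (-1.21, SE 0.27).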

How the data were processed

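The authors deposited UMI counts per gene and spot, made with Cell Ranger per the submitters' processing notes and Space Ranger 1.2.2 per the file headers, on mm10. Everything below was computed from those counts. Spots with at least 1000 UMIs were clustered (20 components, 15 neighbours, resolution 0.6; scikit-learn 1.9.0, leidenalg 0.10.2) on variable genes from a random set of 16142 genes, less members, markers and pathway genes. The remaining genes, with those added back, was summed per region and library and tested with edgeR 4.0.16 (quasi-likelihood test, trimmed mean of M-values, library block, filterByExpr), with Benjamini-Hochberg adjustment over 6584 genes. DESeq2 1.42.0 was an alternative. The library block pairs regions cut from the same sections. Members and lists were chosen with earlier results of these data known. Spots were not deconvolved.

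All mitochondrial members are described. Nuclear members named per anchored region are those with the 5 largest increases and decreases called with 1 sign in each library, the paralog pairs, and the 5 widest and narrowest spans, of which 1 is not reported here; per pathway list, up to 2 called genes each way. Members singled out beyond this rule, those of the unanchored regions among them, were chosen after their values were seen. On simulated data for region 11 (6584 genes), 22.4% of genes changed 1.5 times, 47.8% of those changed 2 times and 83.3% of those changed 4 times passed the p threshold, and 0.047% of unchanged genes. The simulation gave each unchanged gene a single rate over all sums. It held no library effect and no differences between the other regions, so these shares need not hold in the real data. Each sum held 117657 to 4795253 UMIs, and no interval was computed for single spots.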

Additional observations from a re-analysis of the deposited data

Results flagged for a closer look

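Symbols that meet the naming rule but had fewer than 50 UMIs were left out of every comparison, and 4 of them were nonetheless detected in the kept spots. Cox7b2 had 10 UMIs, with 3, 5 and 2 in the library of replicates 1 and 2, replicate 3 and replicate 4. Cox6a2, the muscle form of a complex IV subunit, had 13, with 3, 4 and 6. Cox8b, another muscle form, had 10, with 3, 4 and 3, and 7 of these lay in regions 7 and 11. mt-Nd6, the mitochondrial gene on the strand opposite to the other protein genes, had 25, with 9, 9 and 7. There are no control samples in this series, so each was set against the 3 counts that a count of 0 allows.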

How the results depend on the processing

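The log2 ratio of mitochondrial to nuclear member UMIs moved by less than 1 SD in the 5 anchored regions, for which it was recomputed, under each alternative. For many alternatives this was fixed in advance. A ratio of UMIs does not depend on the scaling, the test or the fold, and leaving out a library could not move the mean by 1 SD. Only the other clusterings and minimums of UMIs per spot could have moved it that far. In region 11, 10 to 12 mitochondrial members were called higher under the settings run other than the minimum of 2 times, which left 9. Of 130 called values of named members recomputed into 2080, 1723 kept direction and call, 346 lost the call and 11 reversed. The totals include 130 values kept with no minimum fold, where no call could be lost. They also include 65 calls lost at the minimum of 2 times, which could only remove calls. Over the 13 regions, 26 mitochondrial calls were higher and 25 lower, and 57 nuclear calls higher and 68 lower; in the contrasts with region 12 they were 11, 0, 82 and 35. Without the replicate block these were 26, 22, 53 and 57, and 10, 0, 76 and 30, so the pairing by library moved no count by 1.5 times.

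At a minimum of 2 times the regional counts were 13, 5, 10 and 10, and the nuclear counts against region 12 were 31 and 10. With no minimum fold they were 40, 41, 349 and 337, and against region 12, 2 mitochondrial members were lower and 138 nuclear higher and 67 lower. Scaled by UMIs outside the mitochondrial genome, the nuclear counts were 97 and 123, and against region 12, 28 mitochondrial higher and 236 nuclear higher and 5 lower. The medians (mitochondrial, nuclear) were then -1.14 and -1.02 in region 12. Region 4 had -0.162 and 0.473, and region 13 had -0.494 and 0.0063, with -0.43 for nuclear members in region 5. Against region 12 they turned to 0.555 and 0.897 in region 13 and 0.482 for nuclear members in region 5. Ndufa9 in region 12 (-0.0867), Cox7a2l in region 4 (0.0642) and Cox6a1 in region 13 (0.0494), the last pair against region 12, also turned. That scaling omits the trimmed mean of M-values factors and moves all genes of a sum together, by construction.

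The nuclear medians of regions 11 and 5 were 0.306 and -0.305 with relative log expression, and 0.307 and -0.302 with DESeq2. With pooled other spots the mitochondrial median of region 4 was -0.294 and the nuclear median of region 5 -0.326. With no filter, 3 mitochondrial members were lower against region 12.

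With no minimum of UMIs per spot the medians of region 12 were -0.082 and 0.00254, of region 5 -0.249 and -0.219, and the mitochondrial median of region 4 was -0.497 and -0.129 against region 12. mt-Nd5 in region 12 was 0.105, and counts against region 12 were 10 mitochondrial lower, 41 nuclear higher and 61 lower. At 5000 UMIs the mitochondrial medians were -0.242, -0.29 and -0.174 in regions 12, 13 and 4, and the nuclear median of region 5 was -0.425. Against region 12 the mitochondrial medians were 0.0377 in region 13 and -0.343 in region 5, with 4 members lower.

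Clustering on the other gene set gave mitochondrial medians of -0.669, -0.194, -0.264 and -0.194 in regions 12, 13, 4 and 5, nuclear medians of 0.275 and -0.144 in regions 11 and 5, and 15 mitochondrial calls lower. Against region 12 it gave 0.425 for mitochondrial members in region 13, 0.279 for nuclear ones in region 5, and counts of 17 mitochondrial higher, 143 nuclear higher and 18 lower. At resolution 0.3 the medians were -0.0323 and -0.00587 in region 12, -0.449 and 0.17 in region 4, -0.31 for mitochondrial members in region 13, and 0.0705 and -0.21 for nuclear ones in regions 11 and 5, with 9 mitochondrial calls lower. Against region 12 the mitochondrial medians were -0.359 and -0.209 in regions 4 and 5 and the nuclear one -0.00387 in region 11, with 5 mitochondrial lower and 28 nuclear higher. Cox4i2 in region 4 (0.324), mt-Nd5 in region 12 (0.0296), and, against region 12, Cox6b2 in region 5 (-0.144) and Sdhd in region 13 (-0.00549) turned. At resolution 1.0 the medians were -0.675 and -0.468 in region 12 and -0.167 and -0.149 in region 5, with 87 nuclear calls higher and 113 lower, and against region 12, 0.3 for nuclear members of region 5, 17 mitochondrial higher and 148 nuclear higher. Regions matched across these clusterings only in part, and the cause was not tested.

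With region 1 in place of region 12, chosen after seeing the data, the mitochondrial medians were -0.33 in region 4 and -0.478 in region 5, mt-Co3 in region 4 was -0.169, Atp5o in region 5 was -0.105, and 14 mitochondrial members were lower and 22 nuclear higher. The comparison within 1 range of UMIs per spot was also chosen after seeing the data.

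Leaving out each library gave 15 to 23 mitochondrial calls lower, and against region 12, 0 to 3 mitochondrial lower and 49 to 87 nuclear higher. The mitochondrial median was -0.372 to -0.184 in region 4 and -1.05 to -0.74 in region 13, the nuclear median -0.303 to -0.223 in region 5 and -0.528 to -0.218 in region 13, and Cox7a1 in region 13 against region 12 ran from -4.12 without replicate 4 to 2.7. Regions 12 and 13 rest on 2 libraries, and without either of them the remaining sum is assumed to vary like the other regions. Rare members such as Cox4i2, Cox7a1 and mt-Atp8 are limited by counts.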
